A study of Mus musculus with 9 samples.

Results

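The Wnt ligands, the Frizzled receptors that bind them and the secreted Sfrp and Dkk inhibitors were examined in whole tumors of the NB9464 mouse neuroblastoma line. Members were chosen by symbol alone, as the genes named Wnt, Fzd, Sfrp1 to Sfrp5 or Dkk1 to Dkk4 in the count table. In all, 37 symbols matched and 35 of them had at least 1 count in at least 1 tumor, out of 27965 symbols with a count. These 35 were 17 Wnt ligands, 10 Frizzled receptors, 4 Sfrp genes and 4 Dkk genes, whereas Wnt3a and Wnt7a were at 0 in every tumor.

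NB9464 is a MYCN-amplified line that was grown under the skin of wild-type C57BL/6 mice of a few weeks of age, and treatment began at a tumor volume of 250 mm3. The design gives 4 treatment days, at days 28, 31, 34 and 37, and R788 was dosed at 50 mg/kg. There were 3 tumors in each of 3 groups: mice given vehicle, mice given R788 + anti-PDL1, and mice given the same agents with 10 Gy of radiation (Rad + R788 + anti-PDL1, below also the irradiated group). R788, or fostamatinib, is a prodrug whose active form inhibits the kinase Syk. The anti-PDL1 antibody prevents the checkpoint ligand PDL1 from engaging PD-1. No group received R788, anti-PDL1 or radiation alone, so the parts played by the single agents cannot be told apart. All 9 tumors carry the same implanted line in the same mouse strain, and the tumors are mixtures of cancer cells and host cells. The labels name bone marrow-derived macrophages in the RNA protocol but whole tumor as the tissue, and 12 fibroblast markers summed to 2894 to 6158 CPM (counts per 1000000 counts of the TMM-scaled library) against 186 to 1209 CPM for 10 macrophage markers. In bulk RNA, fewer cells of a type and less RNA per cell cannot be told apart.

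The 9 libraries held 18276683 to 23397886 estimated counts. The first tumor of the Rad + R788 + anti-PDL1 group stood apart: its TMM scaling factor, which corrects for differences in RNA composition, was 0.743 against 0.975 to 1.12 in the other libraries, and its correlation of log CPM across genes with them was 0.86 to 0.91. For members whose fitted value leaned on it, the value without it is given beside the result. Among the noradrenergic neuroblast markers, Th was at 0 in every tumor and Phox2a, Hand1, Dbh and Chga had at most 3 counts, while Mycn stood at 93.3 to 250 CPM. Other genes of the same marker list were detected, with Hand2 at 325 to 867 CPM, Ddc at 3.44 to 19.7 CPM and Gata2 at 1.26 to 6.99 CPM, so the list was present in part only.

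Wnt proteins are lipid-modified secreted ligands. They bind Frizzled receptors together with the co-receptors Lrp5 and Lrp6 to stabilize β-catenin, which then acts with TCF/LEF factors on target genes. They also signal without β-catenin through receptors such as Ror1, Ror2 and Ryk, a route for which Wnt5a and Wnt11 are best known. Sfrp proteins bind Wnts outside the cell, while Dkk proteins mostly act on Lrp5 and Lrp6. In the embryo, Wnt signals help to induce the neural crest, the lineage from which neuroblastoma arises.

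Levels were compared between genes as CPM per kilobase of exon, and between tumors of 1 gene as CPM. On the per-length scale the 4 highest receptors averaged above every ligand. The mean over 9 tumors was 19.2 CPM per kb for Fzd2, 18 for Fzd7, 12.4 for Fzd1 and 7.84 for Fzd6. Averaged over the 3 groups, the highest ligands were Wnt11 at 3.72 CPM per kb, Wnt4 at 2.36, Wnt5a at 1.89, Wnt6 at 1.82 and Wnt10a at 1.54. The ranges of the 4 receptors overlapped between neighbors in this order, as did those of the 5 ligands. Within each of the 9 tumors Fzd6 was the lowest of the 4 receptors, while the order of the other receptors and of the ligands is not resolved. The order also differed between groups, since in R788 + anti-PDL1 the mean of Wnt11 was 1.87 CPM per kb, against 2.82 for Wnt5a, 2.15 for Wnt4 and 2.14 for Wnt6. The inhibitors were low: Sfrp2 averaged 1.35 CPM per kb, Sfrp4 0.771 and Dkk3 0.201.

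**Figure D1:**
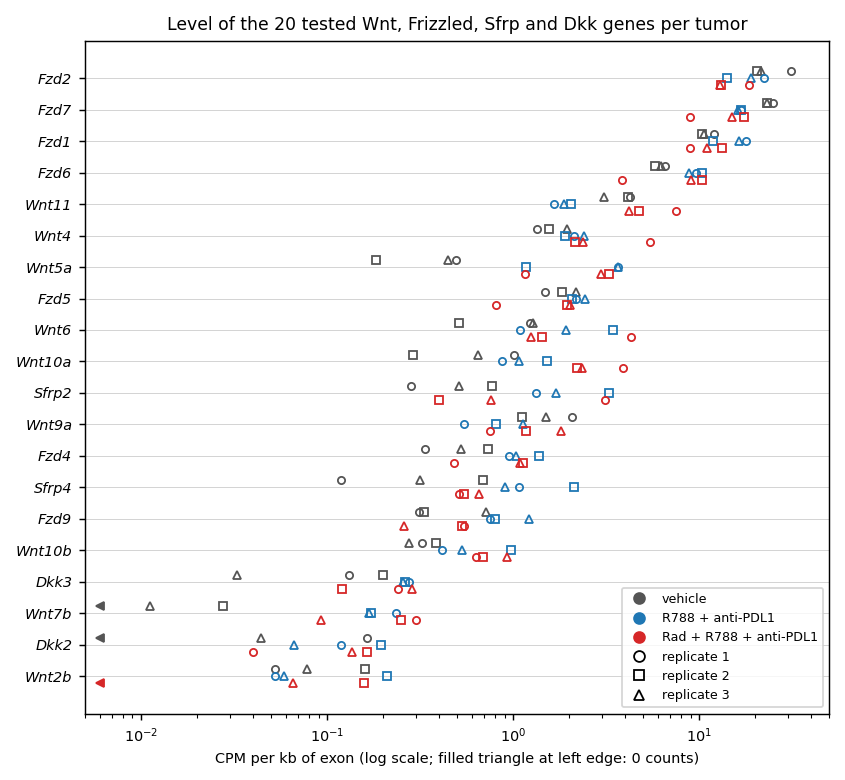
Level of each of the 20 tested genes in each of the 9 tumors, as CPM per kb of exon on a log axis, with color for the group and symbol for the replicate. Fzd2 and Fzd7 lie at the top with means of 19.2 and 18 CPM per kb, and the vehicle tumors of Wnt5a and Wnt7b lie to the left of all treated tumors.

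A filter on low counts left 20 of the 35 genes for testing, namely 9 Wnt, 7 Fzd, 2 Sfrp and 2 Dkk genes. Across 15931 genes, edgeR's quasi-likelihood test with Benjamini-Hochberg adjustment (threshold 0.05) called 108 genes (0.678%) between R788 + anti-PDL1 and vehicle, 7 (0.0439%) between the irradiated group and vehicle, and 1 (0.00628%) between the treated groups. None of the 20 members was called in any of the 3 comparisons by edgeR. At an unadjusted p under 0.05 the counts of members were 6, 7 and 2, against 11.7%, 13.2% and 18.4% of all tested genes. DESeq2 called 4 of 24 members it could test in the first comparison (Wnt5a, Wnt7b and Sfrp4 higher, Wnt11 lower) where it called 4.02% of genes overall. It called 3 of 23 in the second (Wnt5a, Wnt7b and Wnt10a, all higher; 3.16% overall) and 1 of 22 in the third (Wnt11, higher with radiation; 4.02% overall). The statements on single members below therefore rest on values that edgeR did not call after adjustment over all genes.

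Most fitted changes against vehicle were above 0. Between R788 + anti-PDL1 and vehicle, 16 of 20 fitted changes were above 0 with a median log2 change of 0.87, against −0.02 over all tested genes. Between the irradiated group and vehicle, 14 of 20 were above 0 with a median of 0.68, against 0.05. Both comparisons share the vehicle tumors. Between the treated groups, 7 of 9 Wnt ligands were higher with radiation, whereas all 7 Frizzled, both Sfrp and both Dkk genes had fitted values below 0 (median of all 20 members −0.28, all genes 0.04). A difference between classes was not tested, and with 1 tumor left out the sign changed for Wnt5a, Wnt6, Wnt7b, Wnt10b, Wnt2b, Fzd6 and Dkk2. The 20 genes passed a filter that a gene high in 1 group alone can pass, so these counts are descriptions. Groups did not overlap for 11, 7 and 5 members in the 3 comparisons, against 30.1%, 20.5% and 27.4% of all genes.

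**Figure D2:**
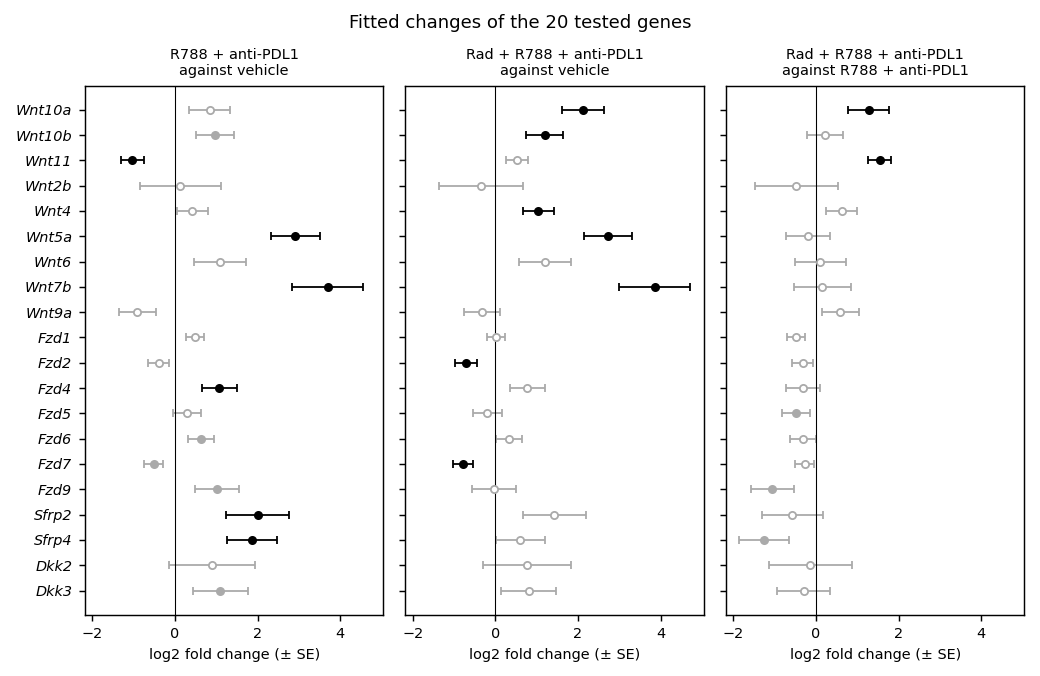
Fitted log2 fold change with its standard error (edgeR, 3 tumors per group) for the 20 tested genes in the 3 comparisons; black marks an unadjusted p under 0.05 and a filled point marks groups that did not overlap. Wnt5a and Wnt7b lie farthest to the right against vehicle in both treated groups, and none of the points passed the adjusted threshold of 0.05.

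Wnt5a, the prototype of the β-catenin-independent ligands (ENSMUSG00000021994.15, GRCm38 chr14:28504750-28527448, plus strand), showed the lowest adjusted p of the members against vehicle. The vehicle tumors had 3.86, 1.44 and 3.51 CPM, the R788 + anti-PDL1 tumors 28.6, 9.13 and 28.5 CPM, and the Rad + R788 + anti-PDL1 tumors 9.00, 25.7 and 23.2 CPM. All 6 treated tumors lay above the 3 vehicle tumors, and 1 tumor in each treated group was at about 9 CPM where the others were above 23. The log2 fold change was 2.91 ± 0.59 (SE, n = 3 per group, 7.53-fold, edgeR adjusted p = 0.0741) for R788 + anti-PDL1 and 2.72 ± 0.59 (6.59-fold, adjusted p = 0.146) for Rad + R788 + anti-PDL1. Without the second R788 + anti-PDL1 tumor the first value was 3.28 (adjusted p = 0.063), and without the first irradiated tumor the second was 3.09 (adjusted p = 0.057). Over all tumors left out in turn, the values were 2.57 to 3.28 (adjusted p up to 0.296) and 2.38 to 3.09 (adjusted p up to 0.577). The treated groups differed by −0.19 ± 0.54 (adjusted p = 0.864), within the spread between tumors. Wnt5a shares 358 bp of exon (4.6%) with Gm2670 on the other strand, which had 0 to 10 counts, and strand handling of the counts is not given in the sources used here.

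Wnt7b, a ligand of the β-catenin route (ENSMUSG00000022382.15, chr15:85535437-85582473, minus strand), was near the counting limit in vehicle tumors. The estimated counts were 0, 3 and 1 in vehicle, 26, 22 and 20 in R788 + anti-PDL1, and 20, 24 and 10 in Rad + R788 + anti-PDL1. Every treated tumor had more counts than any vehicle tumor. The pooled ratio of CPM to vehicle was 13.6 (95% counting interval 5.08 to 51.4) for R788 + anti-PDL1 and 14.3 (5.29 to 54.6) for Rad + R788 + anti-PDL1; the intervals cover counting error only. The edgeR log2 fold changes were 3.70 ± 0.86 (adjusted p = 0.0995) and 3.85 ± 0.86 (adjusted p = 0.155), the latter 3.57 (adjusted p = 0.134) without the first irradiated tumor. Wnt7b passed the low-count filter only through the treated groups, where it was high. Its comparisons with vehicle are therefore descriptions. The overlapping antisense gene AU022754 had 0 to 11 counts, with 11 in the second R788 + anti-PDL1 tumor.

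Wnt11, a ligand known from cell movement in the embryo (ENSMUSG00000015957.12, chr7:98835112-98855195, plus strand), was lowest in the R788 + anti-PDL1 tumors. Vehicle tumors had 17.6, 17.1 and 12.8 CPM, R788 + anti-PDL1 tumors 6.88, 8.48 and 7.79 CPM, and Rad + R788 + anti-PDL1 tumors 31.1, 19.5 and 17.4 CPM. The 3 R788 + anti-PDL1 tumors lay below all others, and the irradiated tumors reached from within the vehicle range to above it. The log2 change was −1.03 ± 0.28 (adjusted p = 0.144) from vehicle to R788 + anti-PDL1, 0.52 ± 0.27 (adjusted p = 0.416) from vehicle to the irradiated group, and 1.55 ± 0.28 (2.93-fold, adjusted p = 0.133) between the treated groups. Without the first irradiated tumor the last values were 0.25 (adjusted p = 0.608) and 1.26 (adjusted p = 0.069), and over all tumors left out in turn the adjusted p between the treated groups was up to 0.528. Of the summed Wnt level per kb, Wnt11 made up 39.3 ± 8.07% (SD, n = 3) in vehicle, 14.8 ± 0.754% in R788 + anti-PDL1 and 28.0 ± 2.66% in Rad + R788 + anti-PDL1, while Wnt5a made up 3.73 ± 1.398%, 22.9 ± 12.7% and 14.0 ± 8.06%. These shares are descriptions, since an exact permutation test of 3 against 3 tumors cannot give a two-sided p under 0.1.

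The 250 bases before each of the annotated start sites of Wnt11 are shown because its fitted change had opposite signs in the treated groups and DESeq2 called it in 2 comparisons, and those before Fzd7 because this abundant receptor lay below vehicle in both treated groups. They were taken from RefSeq on GRCm38.p6, 5′ to 3′ on the gene's strand, and capitals mark the TCF/LEF core (CTTTGA or CTTTGT on either strand).
Wnt11, chr7:98834862-98835111, plus strand: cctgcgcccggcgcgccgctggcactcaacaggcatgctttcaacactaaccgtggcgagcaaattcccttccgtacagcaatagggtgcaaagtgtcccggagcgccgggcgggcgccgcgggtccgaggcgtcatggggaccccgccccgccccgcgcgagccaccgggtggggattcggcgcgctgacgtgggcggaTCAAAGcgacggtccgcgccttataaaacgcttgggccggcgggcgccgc
Wnt11, chr7:98838595-98838844, plus strand: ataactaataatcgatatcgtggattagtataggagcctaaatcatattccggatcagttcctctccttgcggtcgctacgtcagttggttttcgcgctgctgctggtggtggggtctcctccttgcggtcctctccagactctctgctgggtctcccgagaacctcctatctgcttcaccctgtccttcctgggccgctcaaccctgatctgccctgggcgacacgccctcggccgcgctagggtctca
Fzd7, chr1:59481897-59482146, plus strand: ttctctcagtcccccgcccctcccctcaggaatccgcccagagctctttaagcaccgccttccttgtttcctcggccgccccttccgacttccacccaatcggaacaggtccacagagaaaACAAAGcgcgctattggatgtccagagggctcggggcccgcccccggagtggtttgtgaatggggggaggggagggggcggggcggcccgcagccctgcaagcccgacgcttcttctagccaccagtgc
The upstream Wnt11 window held 1 TCF/LEF core, 1 TATA box (TATAAA), 4 GC boxes (GGGCGG) and 37 CpG, whereas the downstream Wnt11 window held none of the 3 motifs and 16 CpG. The Fzd7 window held 1 TCF/LEF core, 6 GC boxes and 17 CpG. Promoters were at hand for 23 of the 35 genes in 26 windows, not including Wnt5a, Wnt7b or Wnt10a. The TCF/LEF core was in 26.9% of these windows against 27.6% of 32851 mouse promoter windows of the same length, so it was not more frequent than elsewhere. GC boxes were in 69.2% against 32.7%, and the median CpG number was 21 against 6. Such matches describe letters, not bound sites.

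Wnt10a and Wnt6 are neighbors on chromosome 1, 6.193 kb apart on the same strand, and both are ligands used in skin and its appendages. Wnt10a (ENSMUSG00000026167.14, chr1:74791516-74804179) had 2.48, 0.719 and 1.59 CPM in vehicle, 2.16, 3.75 and 2.66 CPM in R788 + anti-PDL1, and 9.59, 5.43 and 5.80 CPM in Rad + R788 + anti-PDL1. The irradiated tumors did not overlap with either other group. The log2 change was 2.12 ± 0.51 (4.34-fold, adjusted p = 0.184) against vehicle and 1.28 ± 0.49 (adjusted p = 0.24) against R788 + anti-PDL1; without the first irradiated tumor these were 1.84 (adjusted p = 0.154) and 0.98 (adjusted p = 0.372). Wnt6 ran from 1.12 to 2.80 CPM in vehicle, 2.38 to 7.49 in R788 + anti-PDL1 and 2.74 to 9.37 in Rad + R788 + anti-PDL1, with overlap between the treated groups. Its highest value was in the first irradiated tumor, and its log2 change against vehicle there was 1.20 ± 0.63 with that tumor and 0.44 without it.

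Wnt4, a ligand of kidney and gonad development, had 5.63, 6.56 and 8.11 CPM in vehicle, 8.95, 7.95 and 10.1 CPM in R788 + anti-PDL1, and 22.8, 9.03 and 9.96 CPM in Rad + R788 + anti-PDL1. The irradiated tumors lay above vehicle, but the first of them stood well above the others. The log2 change of 1.04 ± 0.38 (adjusted p = 0.324) became 0.52 (adjusted p = 0.344) without it. Wnt10b, a ligand known from bone and skin, had 1.10, 1.30 and 0.932 CPM in vehicle, 1.41, 3.32 and 1.80 CPM in R788 + anti-PDL1, and 2.14, 2.33 and 3.15 CPM in Rad + R788 + anti-PDL1, so that both treated groups lay above vehicle (log2 0.97 ± 0.45 and 1.19 ± 0.46, adjusted p = 0.459 and 0.337; the second was 1.33 without the first irradiated tumor). Wnt9a was the tested ligand with fitted values below vehicle in both treated groups, at 3.73 to 6.90 CPM in vehicle, 1.81 to 3.77 in R788 + anti-PDL1 and 2.51 to 5.98 in Rad + R788 + anti-PDL1, with overlap in each comparison (log2 −0.92 ± 0.45 and −0.33, adjusted p = 0.492 for the first). Wnt2b stayed at 0 to 0.879 CPM.

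Summed levels of markers of other cell types are given beside these ligands. The summed level of 10 keratinocyte markers was 8.01 to 8.93 CPM in vehicle, 2.16, 65.9 and 24.3 CPM in R788 + anti-PDL1, and 48.5 to 77.4 CPM in Rad + R788 + anti-PDL1, while Ivl was at 0 and Krt1 and Krt15 had at most 3 counts. Krt5 made up most of the sum in the treated tumors, at 1.90 to 75.0 CPM against 3.05 to 7.51 CPM in vehicle. Krt14, its usual partner, had 0.221 to 2.36 CPM in vehicle and 0 in 5 of the 6 treated tumors (0.101 CPM in the sixth), and Trp63 was highest in a vehicle tumor at 3.55 CPM, so the listed markers did not move together. Among the R788 + anti-PDL1 tumors, the one with the highest keratinocyte sum also had the highest Wnt6, Wnt10a and Wnt10b, but the lowest Wnt4 (7.95 CPM against 8.95 and 10.1). Its endothelial, fibroblast and pericyte marker sums were the highest of the group too, at 145, 6158 and 331 CPM. The match was thus not particular to keratinocyte markers. The one with the lowest keratinocyte sum had the highest Wnt5a and Wnt7b, but its Wnt5a was nearly equal to that of the third tumor (28.6 and 28.5 CPM). In the irradiated group, the tumor with the highest keratinocyte sum had the highest Wnt6 and Wnt10a but the lowest Wnt10b (2.14 CPM against 2.33 and 3.15). The part of skin cells in the Wnt10a, Wnt10b, Wnt6 and Wnt4 values was not tested. The first irradiated tumor also had 29.8 CPM of summed skeletal muscle markers against 8.65 to 11.5 CPM in the others, beside its high Wnt4, Wnt6 and Wnt11. Most of that sum was Ckm (10.9 CPM) and Tnnt3 (9.96 CPM), which were highest there, as were Mylpf and Acta1. Actn3 was at 0 in that tumor alone, and Tnnc2 and Myh1 lay within the range of the others. The part of muscle cells in these Wnt values was not tested.

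**Figure D3:**
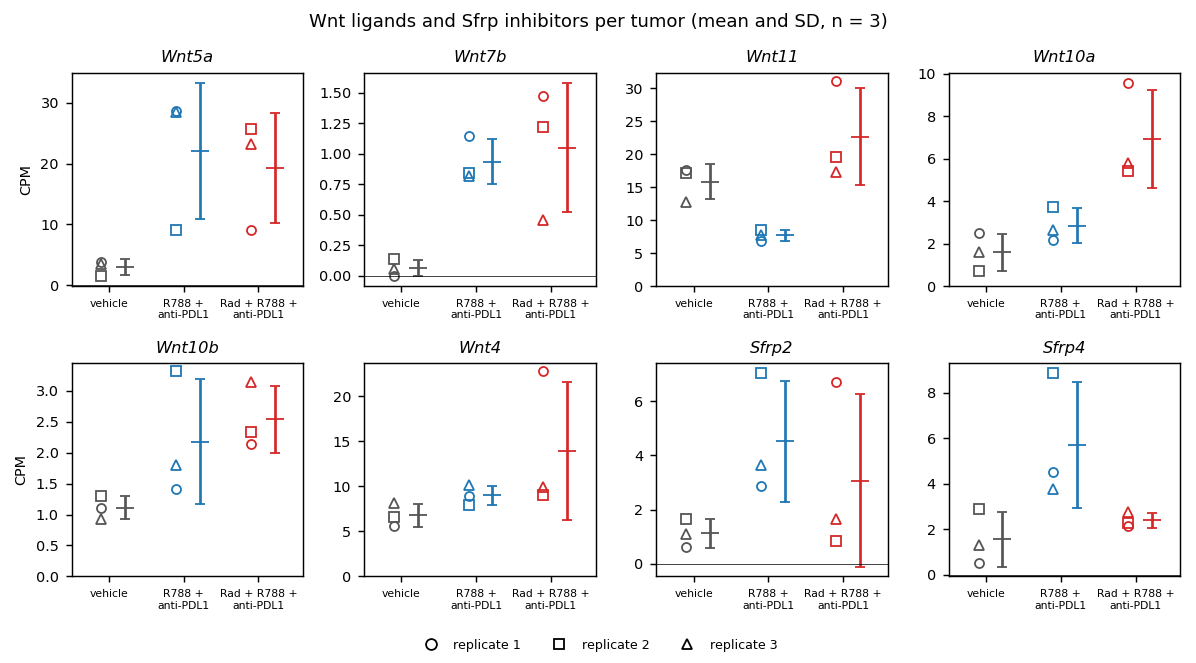
CPM of 6 Wnt ligands and 2 Sfrp inhibitors in each tumor, by group, on linear axes, with the mean and SD (n = 3) beside the points. Wnt5a is above 9 CPM in 5 of the 6 treated tumors and at 9.00 in the other, against at most 3.86 in vehicle, and Wnt11 is below 9 CPM in the R788 + anti-PDL1 tumors only.

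The 8 remaining ligands with a count were below the filter. Wnt1, which lies 11.706 kb from Wnt10b in the opposite orientation, had 2, 0 and 1 counts in vehicle, 4, 30 and 8 in R788 + anti-PDL1 and 0, 31 and 8 in Rad + R788 + anti-PDL1. The pooled ratio to vehicle was 11.2 (95% counting interval 3.58 to 56.5) and 13.8 (4.39 to 69.9), and in each treated group 1 tumor held most of the counts. These intervals cover counting error only and not the spread between tumors, so they do not measure a difference between groups. Wnt2 had 32 counts in the second R788 + anti-PDL1 tumor, 1 and 4 in the other tumors of that group and 0 elsewhere, where 3 counts correspond to at most 0.221 CPM. Wnt3 and Wnt5b had at most 10 and 13 counts, and Wnt8a, Wnt8b, Wnt9b and Wnt16 at most 7.

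Among the tested Frizzled receptors, the 2 most abundant lay lower and the other 5 higher in R788 + anti-PDL1 than in vehicle by fitted values. Fzd7 (ENSMUSG00000041075.8, chr1:59482424-59486955) had 113, 104 and 105 CPM in vehicle, 76.3, 75.7 and 73.1 CPM in R788 + anti-PDL1, and 40.6, 78.5 and 67.6 CPM in Rad + R788 + anti-PDL1. All treated tumors lay below all vehicle tumors. The log2 change was −0.52 ± 0.23 (adjusted p = 0.439) and −0.79 ± 0.24 (adjusted p = 0.265), and the latter was −0.53 (adjusted p = 0.109) without the first irradiated tumor. Fzd2 (ENSMUSG00000050288.6, chr11:102604396-102608058), a close relative of Fzd7, had 114, 74.6 and 78.2 CPM in vehicle, 81.3, 51.7 and 69.8 CPM in R788 + anti-PDL1, and 67.5, 47.9 and 47.4 CPM in Rad + R788 + anti-PDL1. The irradiated tumors lay below vehicle (log2 −0.71 ± 0.26, adjusted p = 0.321, and −0.87, adjusted p = 0.15, without the first of them), while the R788 + anti-PDL1 tumors overlapped with vehicle (log2 −0.40).

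Fzd6, Fzd4 and Fzd9 lay above vehicle in the R788 + anti-PDL1 tumors. Fzd6, a receptor of planar cell polarity, had 31.6, 27.9 and 30.0 CPM in vehicle, 46.5, 49.9 and 42.5 CPM in R788 + anti-PDL1, and 18.6, 49.6 and 43.5 CPM in Rad + R788 + anti-PDL1, so that the first irradiated tumor lay below vehicle and the others above (log2 0.63, adjusted p = 0.502, and 0.32, the latter 0.67 with adjusted p = 0.082 without that tumor). Fzd4, known as the Norrin receptor of blood vessels, had 2.26, 4.89 and 3.51 CPM in vehicle, 6.39, 9.21 and 6.93 CPM in R788 + anti-PDL1, and 3.25, 7.56 and 7.31 CPM in Rad + R788 + anti-PDL1 (log2 1.08 ± 0.42, adjusted p = 0.36, for R788 + anti-PDL1). The summed level of 8 endothelial markers was 51.5 to 57.0 CPM in vehicle, 59.2 to 145 in R788 + anti-PDL1 and 79.0 to 93.6 in Rad + R788 + anti-PDL1. The sum of 93.6 CPM was that of the first irradiated tumor, where Egfl7 was 35.3 CPM against 5.70 to 14.4 in the others. Emcn was also highest there, but Cdh5 (5.68 CPM) and Kdr (4.94 CPM) were lowest of all tumors, so the listed markers did not move together. The part of vessel cells in the Fzd4 values was not tested. Fzd1, the third most abundant receptor, had 50.1, 43.2 and 44.4 CPM in vehicle, 74.6, 49.95 and 68.4 CPM in R788 + anti-PDL1, and 37.3, 55.5 and 46.1 CPM in Rad + R788 + anti-PDL1, with ranges that overlapped (log2 0.49, adjusted p = 0.433, and 0.01). Fzd9 had 0.718, 0.763 and 1.64 CPM in vehicle and 1.72, 1.83 and 2.79 CPM in R788 + anti-PDL1 (log2 1.02 ± 0.53, adjusted p = 0.517). In Rad + R788 + anti-PDL1 it had 1.25, 1.22 and 0.594 CPM. Fzd5 ran from 5.61 to 16.8 CPM over all tumors, and Fzd3, Fzd8 and Fzd10 had at most 4 counts.

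Fzd2 and Fzd7 together made up 73.1, 69.6 and 68.7% of the summed Frizzled level per kb in vehicle, 55.5, 53.7 and 54.1% in R788 + anti-PDL1, and 65.2, 52.9 and 54.4% in Rad + R788 + anti-PDL1. All 6 treated tumors lay below the vehicle tumors, with means of 70.5 ± 2.33% (SD, n = 3), 54.4 ± 0.907% and 57.5 ± 6.74%. The share of Fzd6 was 9.16 ± 0.550%, 15.1 ± 2.55% and 14.9 ± 4.94%, and that of Fzd1 was 16.1 ± 0.519%, 23.7 ± 2.56% and 21.9 ± 0.966%. The summed Frizzled level was 67.9 ± 7.71 CPM per kb in vehicle, 64.2 ± 6.54 in R788 + anti-PDL1 and 50.2 ± 7.83 in Rad + R788 + anti-PDL1, whereas the summed Wnt level was 9.81 ± 1.19, 12.6 ± 1.44 and 19.3 ± 4.40 CPM per kb. In the irradiated group the Wnt sum was 24.3, 17.0 and 16.4 CPM per kb and the Frizzled sum 42.0, 57.5 and 51.2 CPM per kb, so that the first tumor was the extreme of both. The other irradiated tumors also lay above every vehicle tumor in the Wnt sum, of which the highest was 11.04, and below every vehicle tumor in the Frizzled sum, of which the lowest was 62.4. These sums and shares were formed after the values were known and are given as descriptions, with no p-value.

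**Figure D4:**
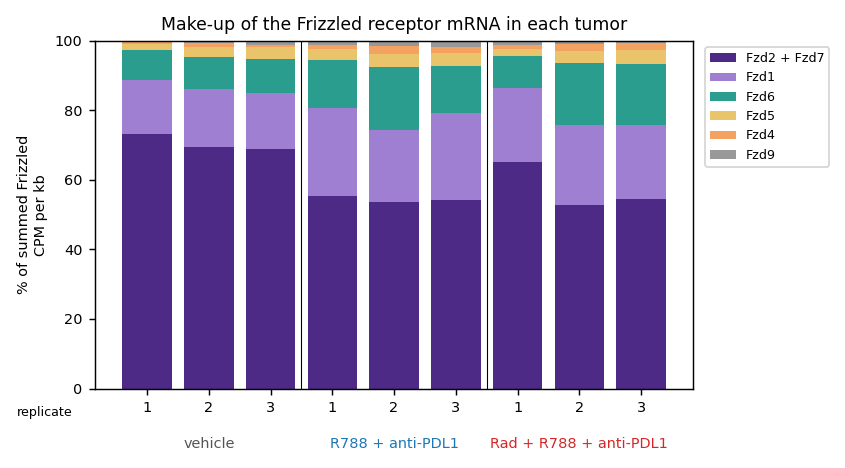
Share of each tested Frizzled gene in the summed Frizzled level (CPM per kb) of each tumor, as stacked bars in percent. Fzd2 and Fzd7 together take 68.7 to 73.1% in vehicle and 52.9 to 65.2% in the treated tumors, and the bar nearest to vehicle among the treated tumors is the first irradiated tumor at 65.2%.

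Both tested Sfrp inhibitors lay above vehicle in the R788 + anti-PDL1 tumors. Sfrp4 (chr13:19623104-19632994) had 0.497, 2.87 and 1.32 CPM in vehicle, 4.50, 8.87 and 3.77 CPM in R788 + anti-PDL1, and 2.14, 2.28 and 2.74 CPM in Rad + R788 + anti-PDL1. The R788 + anti-PDL1 tumors lay above both other groups (log2 1.86 ± 0.61, adjusted p = 0.251, against vehicle, and the irradiated group differed from them by −1.25 ± 0.60, adjusted p = 0.285). Sfrp2 had 0.607, 1.66 and 1.10 CPM in vehicle, 2.87, 7.03 and 3.65 CPM in R788 + anti-PDL1, and 6.71, 0.863 and 1.64 CPM in Rad + R788 + anti-PDL1. Its log2 change of 2.0 ± 0.77 (adjusted p = 0.348) in R788 + anti-PDL1 was 1.53 without the second tumor, and that of 1.43 in the irradiated group was 0.19 without the first. Sfrp2 shares 16.1% of its exon length with the antisense gene Gm26771, which had 17 to 73 counts. Dkk3, a divergent Dkk protein, had 0.442, 0.674 and 0.110 CPM in vehicle, 0.926, 0.879 and 0.861 CPM in R788 + anti-PDL1, and 0.811, 0.406 and 0.959 CPM in Rad + R788 + anti-PDL1 (log2 1.10 for the first comparison). Dkk2 had 0.607, 0 and 0.164 CPM in vehicle, 0.441, 0.726 and 0.246 CPM in R788 + anti-PDL1, and 0.148, 0.609 and 0.502 CPM in Rad + R788 + anti-PDL1, with overlap throughout. Sfrp1 had 1, 1 and 0 counts in vehicle, 2, 13 and 0 in R788 + anti-PDL1, and 0, 1 and 4 in Rad + R788 + anti-PDL1, and Sfrp5, Dkk1 and Dkk4 had at most 2 counts in any tumor. Sfrp2 and Sfrp4 are typical of fibroblasts. The summed level of 12 fibroblast markers was 3630 to 4281 CPM in vehicle. It was highest in the same R788 + anti-PDL1 tumor as both genes, at 6158 CPM, but 3450 and 4034 CPM in the other tumors of that group. The sum was lowest of all 9 in the first irradiated tumor, where Sfrp2 was at 6.71 CPM. In the other irradiated tumors it was 5588 and 4965 CPM, with Sfrp2 at 0.863 and 1.64 CPM. In the first irradiated tumor Col1a1, a large part of the sum, was 959 CPM against 1950.5 to 2845 in the others. Pdgfra, Postn and Col6a3 were also lowest of all 9 there. Fap was the highest of all 9 there, at 15.7 CPM, and Col3a1 at 1436 CPM lay above vehicle (911 to 1185). The listed fibroblast markers thus did not move together. The part of fibroblasts in the Sfrp values was not tested.

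Among 63 other Wnt pathway genes, 57 were tested and 1 was called by edgeR in any comparison. Lef1, the DNA-binding partner of β-catenin (ENSMUSG00000027985.14, chr3:131110471-131224356), had 114, 121 and 123 CPM in vehicle, 55.6, 64.7 and 59.2 CPM in R788 + anti-PDL1, and 120, 109 and 95.5 CPM in Rad + R788 + anti-PDL1. It fell in R788 + anti-PDL1 (log2 −1.0 ± 0.17, adjusted p = 0.039), and the difference between the treated groups was 0.85 ± 0.17 (adjusted p = 0.135). The call was lost when any 1 tumor of these groups was left out (adjusted p = 0.0681 to 0.23). The co-repressor Tle1 had the same shape, with 106, 122 and 123 CPM in vehicle, 47.7, 64.1 and 49.7 CPM in R788 + anti-PDL1, and 135, 103 and 85.2 CPM in Rad + R788 + anti-PDL1 (log2 −1.12 ± 0.22, adjusted p = 0.0663). Wnt11, Lef1 and Tle1 were thus all lowest in the 3 R788 + anti-PDL1 tumors.

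The unadjusted p was under 0.05 for 12, 6 and 9 of the 57 pathway genes in the 3 comparisons, where 11.7%, 13.2% and 18.4% of all tested genes had such a p. DESeq2 called 5 of 59, 1 of 58 and 3 of 57 pathway genes, where it called 4.02%, 3.16% and 4.02% of all genes. The edgeR median log2 changes of the pathway genes were 0.13, −0.15 and −0.23, against −0.02, 0.05 and 0.04 over all tested genes. Of 14 listed β-catenin target genes 11 were tested, and Lef1 was the only one edgeR called. At an unadjusted edgeR p under 0.05, 5 were higher and 1 lower in the first comparison, 2 higher and 1 lower in the second, and 1 higher in the third. DESeq2 called 3, 1 and 1 of 11. Lef1 and several others are in both lists. Tnfrsf19, a receptor of the TNF family, had 0.331, 1.44 and 0.493 CPM in vehicle, 18, 2.18 and 16.4 CPM in R788 + anti-PDL1, and 4.57, 4.82 and 4.25 CPM in Rad + R788 + anti-PDL1 (log2 3.98 ± 0.82, adjusted p = 0.0747, and 2.56 ± 0.78, adjusted p = 0.27). The second R788 + anti-PDL1 tumor was the lowest of its group in Tnfrsf19, as it was in Wnt5a. Cd44, a cell surface receptor for hyaluronan, ran from 34.1 to 46.5 CPM in vehicle, 60.7 to 115 in R788 + anti-PDL1 and 60.6 to 84.6 in Rad + R788 + anti-PDL1 (log2 1.25, adjusted p = 0.0844, and 0.85 ± 0.27, adjusted p = 0.277). The feedback inhibitor Axin2, chosen after its values were seen, had 5.43 to 8.06 CPM in vehicle, 12.1 to 15.7 in R788 + anti-PDL1, and 3.02, 11.3 and 11.1 in Rad + R788 + anti-PDL1 (log2 1.09 ± 0.45, adjusted p = 0.384, for R788 + anti-PDL1).

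Among the co-receptors, Ror1, a receptor of Wnt5a that was also chosen after its values were seen, had 6.35, 6.42 and 5.65 CPM in vehicle, 19.3, 24.5 and 20 CPM in R788 + anti-PDL1, and 4.57, 12.4 and 12.7 CPM in Rad + R788 + anti-PDL1. The R788 + anti-PDL1 tumors lay above all others (log2 1.79 ± 0.37, adjusted p = 0.0761), and the irradiated group differed from them by −1.10 ± 0.36 (adjusted p = 0.223). The β-catenin co-receptors, also named outside the rule, ran from 94.3 to 179 CPM (Lrp5) and from 92.3 to 214 CPM (Lrp6) over the 9 tumors. Of the extracellular modulators, Sostdc1, an inhibitor of the Wnt and BMP routes, had 0.883, 0.0449 and 0.274 CPM in vehicle, 2.87, 4.05 and 3.16 CPM in R788 + anti-PDL1, and 2.95, 2.74 and 2.42 CPM in Rad + R788 + anti-PDL1 (log2 3.07, adjusted p = 0.112, and 2.76 ± 0.75, adjusted p = 0.222). Draxin, an axon guidance protein that binds Lrp6, had 2.51 to 5.39 CPM in R788 + anti-PDL1 and 7.89 to 16.2 in Rad + R788 + anti-PDL1 (log2 1.66 ± 0.42, adjusted p = 0.189), against 5.15 to 7.84 in vehicle.

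**Figure D5:**
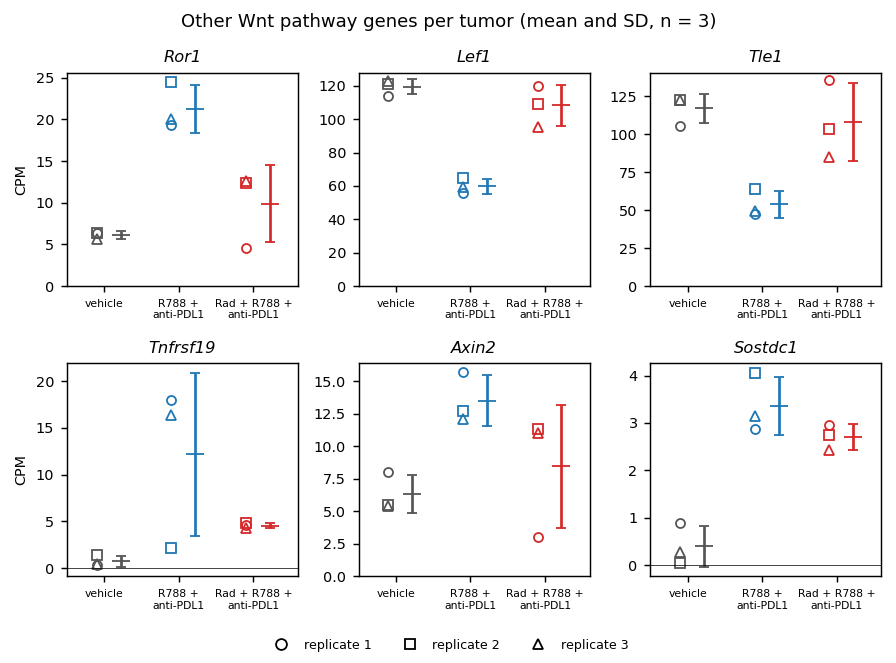
CPM of 6 other Wnt pathway genes in each tumor, by group, on linear axes, with the mean and SD (n = 3) beside the points. Lef1 lies at 55.6 to 64.7 CPM in the R788 + anti-PDL1 tumors and at 95.5 CPM or more in all others, and Ror1 is highest in the R788 + anti-PDL1 tumors, at 19.3 to 24.5 CPM.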

How the data were processed

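RNA of 9 whole tumors was sequenced. Per the labels and the methods, the authors aligned reads to mm10 with STAR (2.6.1d) and quantified genes with Salmon (1.4.0), and deposited 1 table of estimated counts per gene symbol, given as whole numbers. They were used as deposited. Groups follow the sample titles. The replicates are labelled as separate samples, so p-values measure the spread between tumors. Genes passing filterByExpr (minimum count 10; 15931 genes) were fitted over all 9 tumors with edgeR 4.0.16 (TMM, quasi-likelihood test, 1 term per group), and DESeq2 1.42.0 and limma 3.58.1 were alternatives. The scripts were tested on simulated data with a lower dispersion than the common value of 0.146 fitted here, and without changes in low genes. That test does not show how well changes such as those described would be found. Exon lengths and coordinates are from GENCODE M21 (GRCm38); 98.7% of symbols matched 1 gene. A count of 0 allows up to 3 counts, 0.115 to 0.221 CPM. Members and gene lists were chosen with earlier results of these data known. Members with an unadjusted p under 0.05 and the 3 highest of each class are given in every tumor; pathway genes named are those called and the 3 with the lowest p per comparison, others being marked as chosen afterwards.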

Additional observations from a re-analysis of the deposited data

How the results depend on the processing

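Of 836 alternative values of the 20 tested members, 761 kept their direction and side of the threshold, 37 became called and 38 changed sign. The number of members called, 0 by edgeR in each comparison, became 4, 3 and 1 with DESeq2 (in the order R788 + anti-PDL1 against vehicle, Rad + R788 + anti-PDL1 against vehicle, and irradiated against R788 + anti-PDL1) and 11, 8 and 5 with limma's sample quality weights; in the first comparison it was 1 without the filter and 4 when only those 6 tumors were fitted. The number of other pathway genes called, 1, 0 and 0, became 5, 1 and 3 with DESeq2 and 26, 11 and 16 with quality weights. For the first comparison it was 0 with upper-quartile scaling and 5 with only 6 tumors, and leaving out 1 tumor gave 0 to 1 in the first and second comparisons (Vangl1 in the second, without the first irradiated tumor). The number of β-catenin targets called, 1, 0 and 0, became 3, 1 and 1 with DESeq2 and 6, 3 and 2 with quality weights. For the first comparison it was 0 with upper-quartile scaling, 2 without the filter, 4 with only 6 tumors and 0 to 1 with 1 tumor left out. DESeq2 called 4.02%, 3.16% and 4.02% of all genes in the 3 comparisons. The share of all genes called was not computed for quality weights, the unfiltered fit or the fits of 6 tumors. The counts under those settings are therefore no result about the Wnt genes.

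With the replicate number as a block, the counts for pathway genes and β-catenin targets in the first comparison were both 0 (Lef1 −1.0, adjusted p = 0.087), and no member was called. Whether the numbers pair the tumors was not settled. Deviations of same-numbered tumors correlated at −0.046 to 0.233, over 0.1 in 2 of 9 pairs. Those of different-numbered tumors correlated at −0.225 to 0.123, over 0.1 in 1 of 18 pairs. The 2 highest values, 0.233 and 0.191, were both of same-numbered vehicle and irradiated tumors.

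The sign changed in 38 alternative values of log2 changes. Between the treated groups, quality weights gave 0.88 for Dkk2, 0.078 for Fzd4, 0.074 for Fzd6, 0.67 for Wnt2b, −0.027 for Wnt4, −0.39 for Wnt6 and −0.13 for Wnt7b, limma-voom gave −0.073 for Wnt6 and −0.032 for Wnt7b, and the replicate block gave −0.077 for Wnt6. Leaving out 1 tumor at a time gave −0.56 to 0.16 for Wnt5a, −0.67 to 0.61 for Wnt6, −0.16 to 0.52 for Wnt7b, −0.011 to 0.66 for Wnt10b, −1.54 to 0.45 for Wnt2b, −0.57 to 0.013 for Fzd6 and −0.48 to 0.32 for Dkk2. Between the irradiated group and vehicle, Wnt2b was 0.13 with quality weights, Fzd9 was 0.028 with upper-quartile scaling and 0.065 with the replicate block, and leaving out 1 tumor gave −1.41 to 0.22 for Wnt2b, −0.14 to 0.17 for Fzd1, −0.40 to 0.15 for Fzd5 and −0.23 to 0.45 for Fzd9. Between R788 + anti-PDL1 and vehicle, Wnt2b was −0.035 with limma-voom, −0.53 with quality weights and −0.80 to 0.70 with 1 tumor left out. The Fzd2 and Fzd7 share differed between the treated groups by 3.06 percentage points and by −0.812 without the first irradiated tumor, an alternative added after the data were seen. The cause of these changes was not tested. With upper-quartile scaling the median log2 change of all genes was 0.067 in the first comparison (−0.018 with TMM) and 0.109 in the second (0.046 with TMM). Low members, such as Wnt7b and the Dkk genes, are limited by depth.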
